A study of Mus musculus with 20 samples.

Results

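The genes described here are 10 genes of cell division and DNA replication, taken by name from the 39056 genes of a hippocampal count table. They are Mki67, Top2a, Cdk1 and Ccna2, read here as division genes, and Mcm2, Mcm3, Mcm4, Mcm5, Mcm6 and Mcm7, which encode the MCM helicase. They were listed by name and not by their levels, though earlier results of these data were known when they were chosen. All 10 were found in the table, and all 10 passed the filter on low counts among the 16107 genes that were tested.

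The RNA came from the left hippocampus of 20 female mice on a C57BL/6 background, aged 12 to 13 months, with 5 mice in each of 4 groups. Mice with or without the Tg-SwDI transgene (Tg-SwDI and Non-Tg) were either miR-34a WT or miR-34a KO. The KO mice carried a constitutive deletion of miR-34a in every cell, and the Tg-SwDI mice carried human APP with the Swedish, Dutch and Iowa mutations under the Thy1 promoter, which is active mainly in neurons. The labels give no treatment. A mouse is called by its group and its label number.

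A cell that is about to divide loads the MCM helicase, a hexameric ring of Mcm2 to Mcm7, onto its replication origins in G1 and opens the DNA with it in S phase. Ccna2 (cyclin A2) and Cdk1 (the kinase that starts mitosis) drive the later steps, Top2a untangles the copied chromosomes, and Mki67 encodes the Ki-67 protein that coats mitotic chromosomes and is the usual stain for cycling cells. Most cells of the adult hippocampus are neurons that no longer divide. Microglia, oligodendrocyte precursors, endothelium and the progenitors of the dentate gyrus can divide, and microglia multiply around amyloid deposits through the receptor Csf1r and its ligands Csf1 and Il34. MCM proteins are also present in cells that are not in cycle, so their transcripts mark division less sharply than those of Cdk1 or Top2a.

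The counts were raw reads per gene, with totals between 19549622 and 21066868 per mouse. Levels are given as CPM, reads of a gene scaled to a common library size after TMM scaling, and 1 CPM was about 20 reads. A gene is said to have passed the test, or been called, when the p-value of edgeR's quasi-likelihood test, adjusted over all 16107 genes by the Benjamini-Hochberg method, lay below 0.05. Library labels were checked with Xist, which lay between 326 and 666 CPM, and Thy1, whose range was 684 to 769 CPM without the transgene and 1903 to 3316 CPM with it. Summed choroid plexus markers ranged from 66.7 to 4411 CPM over the mice and reached at most 357 CPM in the KO Non-Tg group. KO Tg-SwDI mouse 8 had 14.6% of its counts on mitochondrial genes and the lowest TMM factor (0.901), while the share in the next highest mouse was 8.76%.

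The microRNA that was deleted is shown first because it separates the groups. Mature mmu-miR-34a-5p lies at chr4:150068473-150068494 on the plus strand of GRCm38.p6 (RefSeq), and the capitals mark its seed, bases 2 to 8.
mmu-miR-34a-5p: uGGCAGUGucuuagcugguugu

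The 7-base match to this seed, CACTGCC, stood in the longest annotated 3'UTR of 1 of the 10 genes, Mcm5, which held 1 match that was also followed by A. Among 14734 tested genes with an annotated 3'UTR, 19% held such a match, and 6.69% held it with the A. The 3'UTRs of the 10 genes ran from 139 bases in Mcm7 to 3355 bases in Cdk1, against a median of 1373 bases over those tested genes. A match is a description of the letters only.

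Promoter windows from RefSeq, 250 bases before to 50 after each start on GRCm38.p6, were found for 8 of the 10 genes (Mcm7 with 2 windows). Ccna2 and Mcm4 had no entry. Words for 3 elements of cell cycle promoters were searched on both strands: E2F (TTTCCCGC, TTTCGCGC, TTTGCCGC or TTTGGCGC), CHR (TTTGAA) and CCAAT. Matches to TTTGGCGC and TTTCGCGC on opposite strands can overlap, and those in Mcm5 and Mcm6 did. The promoters of the 3 division genes with an entry and of Mcm3 and Mcm6 are shown upstream of the start because they differ in these words, with every match in capitals. They lie on the minus strand at chr7:135716380-135716629 (Mki67), chr11:99024190-99024439 (Top2a), chr10:69352913-69353162 (Cdk1), chr1:20820313-20820562 (Mcm3) and chr1:128359706-128359955 (Mcm6).
Mki67: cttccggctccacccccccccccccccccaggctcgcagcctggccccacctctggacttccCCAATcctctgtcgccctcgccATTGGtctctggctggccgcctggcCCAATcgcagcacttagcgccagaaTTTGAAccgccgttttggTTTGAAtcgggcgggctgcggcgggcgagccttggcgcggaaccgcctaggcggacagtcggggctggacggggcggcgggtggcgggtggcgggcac
Top2a: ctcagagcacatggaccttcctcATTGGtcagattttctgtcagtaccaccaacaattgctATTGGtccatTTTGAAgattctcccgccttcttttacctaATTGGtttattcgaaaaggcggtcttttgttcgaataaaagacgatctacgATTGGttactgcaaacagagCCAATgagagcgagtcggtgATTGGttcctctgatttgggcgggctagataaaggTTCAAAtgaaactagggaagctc
Cdk1: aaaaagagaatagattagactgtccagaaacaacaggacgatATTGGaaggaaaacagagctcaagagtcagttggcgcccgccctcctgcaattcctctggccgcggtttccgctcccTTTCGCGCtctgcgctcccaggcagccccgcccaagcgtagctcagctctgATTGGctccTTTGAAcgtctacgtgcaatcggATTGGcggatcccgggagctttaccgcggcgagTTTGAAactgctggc
Mcm3: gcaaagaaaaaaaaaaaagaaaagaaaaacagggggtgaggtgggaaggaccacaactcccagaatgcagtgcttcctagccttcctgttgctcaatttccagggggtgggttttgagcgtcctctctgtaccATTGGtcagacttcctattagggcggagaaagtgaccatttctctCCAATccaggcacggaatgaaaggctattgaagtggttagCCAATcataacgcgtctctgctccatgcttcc
Mcm6: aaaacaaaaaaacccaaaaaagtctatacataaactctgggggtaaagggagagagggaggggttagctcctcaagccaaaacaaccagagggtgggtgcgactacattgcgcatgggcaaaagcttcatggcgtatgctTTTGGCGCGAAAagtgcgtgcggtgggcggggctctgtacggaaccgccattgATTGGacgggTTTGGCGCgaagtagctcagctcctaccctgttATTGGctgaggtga

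The CHR word stood 2 times in each of Mki67, Top2a and Cdk1 and 1 time in Mcm2, and it was found in 4 of the 9 windows of these genes and in 17.9% of all 32851 windows. E2F words stood in Cdk1 (1 match), Mcm3 (2), Mcm5 (2), Mcm6 (3) and 1 of the windows of Mcm7 (2), which makes 5 of the 9 windows against 2.26% of all windows. The 2 E2F words of Mcm3 lie after its start and are not in the stretch shown. CCAAT was found in 9 of the 9 windows and in 37.4% of all windows, with 6 matches in Top2a. Mcm3 and Mcm6 thus both held E2F words and CCAAT and no CHR word, and their levels are compared below.

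Transcripts of all 4 division genes were rare. Averaged over the 20 mice, Mki67 reached 2.41 CPM, Ccna2 1.61 CPM, Top2a 1.20 CPM and Cdk1 0.583 CPM. Per kilobase of exon, which allows genes to be compared, Ccna2 was the highest of the 4 at 0.395 CPM per kb, followed by Mki67 (0.240), Top2a (0.133) and Cdk1 (0.118). The MCM genes were more abundant: Mcm4 had 3.30, Mcm6 2.97, Mcm7 2.64, Mcm5 1.08, Mcm3 1.07 and Mcm2 0.879 CPM per kb. The 6 subunits form 1 ring, but their transcripts were uneven, with Mcm2 at 7.38% and Mcm4 at 27.6% of the summed MCM level per kb on average.

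Cdk1, the mitotic kinase (chromosome 10, 69335146 to 69352938, minus strand), had 6, 4, 5, 2 and 16 reads in the WT Non-Tg mice and 2, 5, 6, 10 and 3 in the KO Non-Tg mice. It had 19, 22, 14, 12 and 26 reads in the WT Tg-SwDI mice and 25, 18, 13, 18 and 13 in the KO Tg-SwDI mice. Apart from WT Non-Tg mouse 7, at 16 reads, every Non-Tg mouse lay below every Tg-SwDI mouse. Group means were 0.316 ± 0.259, 0.249 ± 0.149, 0.888 ± 0.267 and 0.877 ± 0.216 CPM (SD, n = 5 each, in the same order). Cdk1 passed the filter on low counts through the Tg-SwDI mice, since 10 of them and 1 Non-Tg mouse exceeded its 0.483 CPM threshold.

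Top2a, the topoisomerase of mitotic chromosomes (chromosome 11, 98992943 to 99024189), had 0.662, 0.396, 0.986, 0.699 and 1.57 CPM in the WT Non-Tg mice. The KO Non-Tg mice had 0.287, 0.758, 0.675, 1.01 and 0.918 CPM. In WT Tg-SwDI mice the values were 0.657, 1.51, 1.77, 1.35 and 2.82 CPM, and in KO Tg-SwDI mice 2.70, 1.41, 1.30, 0.820 and 1.71 CPM. WT Tg-SwDI mouse 7 and KO Tg-SwDI mouse 1 were the highest, and Tg-SwDI and Non-Tg values overlapped in both genotypes.

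Mki67 (chromosome 7, 135689784 to 135716361) had 2.22, 1.78, 1.36, 2.50 and 2.19 CPM in WT Non-Tg mice and stayed between 1.98 and 2.31 CPM in the 5 KO Non-Tg mice. It had 2.35, 2.46, 2.99, 3.23 and 3.82 CPM in WT Tg-SwDI mice and 2.98, 2.71, 2.80, 2.31 and 2.09 CPM in KO Tg-SwDI mice. The highest values were those of WT Tg-SwDI mice, with group means of 2.01 ± 0.44, 2.08 ± 0.14, 2.97 ± 0.60 and 2.58 ± 0.37 CPM (SD, n = 5 each). Gm45240 overlaps Mki67 over 674 bases on the opposite strand, and the strand setting of the counting was not given in the sources used here.

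Ccna2 (chromosome 3, 36564865 to 36572150) had 1.18, 1.59, 1.55, 1.25 and 1.19 CPM in WT Non-Tg mice and 1.34, 1.28, 1.83, 0.911 and 1.26 CPM in KO Non-Tg mice. It had 1.64, 2.22, 2.11, 1.69 and 1.48 CPM in WT Tg-SwDI mice and 1.56, 2.09, 2.27, 1.69 and 2.15 CPM in KO Tg-SwDI mice. In WT mice, 4 of the 5 Tg-SwDI values lay above all Non-Tg values. Exosc9 overlaps Ccna2 over 863 bases on the opposite strand, so reads there cannot be assigned to either gene with certainty.

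**Figure D1:**
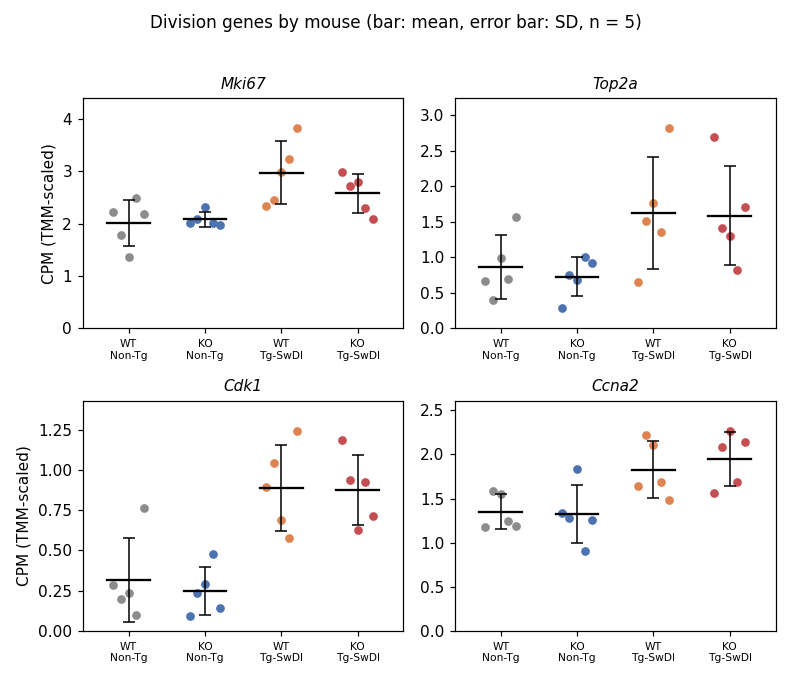
CPM (TMM-scaled, vertical axes from 0) of Mki67, Top2a, Cdk1 and Ccna2 in each mouse, by group; horizontal bars are means and error bars SD, n = 5. Cdk1 lies at or below 0.479 CPM in every Non-Tg mouse except WT Non-Tg mouse 7 (0.763) and at or above 0.579 in every Tg-SwDI mouse.

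Of the 6 MCM genes, Mcm3 (chromosome 1, 20802968 to 20820312) had the largest fold change with the transgene. It had 3.92, 3.12, 2.82, 3.65 and 3.24 CPM in WT Non-Tg mice and 2.63, 3.22, 2.51, 3.64 and 2.37 CPM in KO Non-Tg mice. WT Tg-SwDI mice had 3.66, 4.21, 3.73, 4.73 and 4.88 CPM, and KO Tg-SwDI mice had 5.91, 5.53, 6.33, 5.28 and 4.73 CPM. Every KO Tg-SwDI mouse lay above every KO Non-Tg mouse, and 4 of the 5 lay above every WT Tg-SwDI mouse.

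The other subunits had smaller differences. Without the transgene Mcm2 ran from 5.49 to 6.52 CPM in WT and from 4.79 to 6.57 CPM in KO mice, and with it from 6.12 to 6.71 CPM in WT and from 5.94 to 7.14 CPM in KO mice. Mcm5 had group means of 4.16 ± 0.48, 3.81 ± 0.48, 4.60 ± 0.37 and 4.64 ± 0.64 CPM (SD, n = 5 each, in that order). Mcm4 (11.6, 11.5, 12.5 and 11.7 CPM) and Mcm6 (13.1, 13.9, 13.9 and 14.6 CPM) had means whose differences were close to their SDs, which ran from 0.697 to 1.79 CPM. Mcm7 had 12.5, 12.1, 12.2, 12.5 and 12.1 CPM in WT Tg-SwDI mice and 11.8, 11.2, 11.3, 10.8 and 9.85 CPM in KO Tg-SwDI mice, which do not overlap. Mcm7 overlaps Ap4m1 over 421 bases and Cops6 over 64 bases on the opposite strand and carries Mir25, Mir93 and Mir106b on its own strand.

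**Figure D2:**
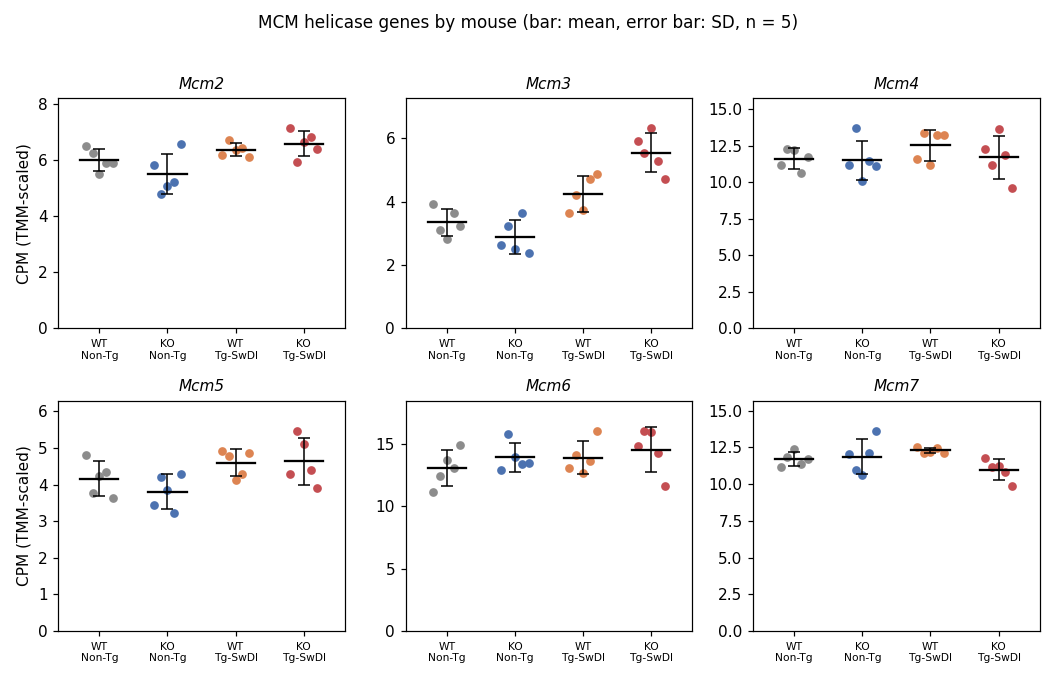
CPM (TMM-scaled, vertical axes from 0) of Mcm2 to Mcm7 in each mouse, by group; horizontal bars are means and error bars SD, n = 5. Mcm3 is the panel in which the KO Tg-SwDI mice (4.73 to 6.33 CPM) stand clear of the KO Non-Tg mice (2.37 to 3.64 CPM).

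The first comparison asks what the transgene changed, averaged over both miR-34a genotypes. All 4 division genes rose: Cdk1 by a log2 fold change of 1.63 (SE 0.27, edgeR adjusted p = 7.4e-05), Top2a by 1.01 (SE 0.27, adjusted p = 0.0125), Ccna2 by 0.50 (SE 0.13, adjusted p = 0.00779) and Mki67 by 0.44 (SE 0.12, adjusted p = 0.00878). Mcm3 rose by 0.65 (SE 0.09, adjusted p = 9.6e-06). The remaining subunits did not pass, with 0.17 for Mcm2 (adjusted p = 0.0722), 0.22 for Mcm5 (0.0744), 0.07 for Mcm4, 0.08 for Mcm6 and -0.02 for Mcm7. In all, 5 of 10 genes passed and all 5 were higher, where 11.3% of all tested genes passed and were higher. Cdk1 entered the test through the Tg-SwDI mice, where it is high, and without it the count was 4 of 9. In the fit with no filter on low counts Cdk1 had an adjusted p of 2.61e-06. The median log2 fold change was 0.75 over the 4 division genes (0.50 without Cdk1) and 0.13 over the 6 MCM genes, against -0.0076 over all genes tested. With the choroid plexus level as a covariate Ccna2 missed the threshold (adjusted p = 0.0515), and with any 1 mouse left out all 5 genes passed.

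Within WT mice, Tg-SwDI against Non-Tg, Cdk1 rose 2.76-fold (log2 1.47, SE 0.38, edgeR adjusted p = 0.0184) and Mki67 1.48-fold (log2 0.56, SE 0.16, adjusted p = 0.0441). The other division genes did not pass, with log2 fold changes of 0.90 for Top2a (SE 0.38, adjusted p = 0.246) and 0.43 for Ccna2 (SE 0.18, adjusted p = 0.230), and Mcm3 had 0.34 (SE 0.13, adjusted p = 0.188). Thus 2 of 10 genes passed and were higher (1 of 9 without Cdk1), against 3.94% of all tested genes. No gene passed without WT Non-Tg mouse 3, WT Non-Tg mouse 4 or WT Tg-SwDI mouse 7 (0 of 10 each time). It was 1 of 10 without WT Non-Tg mouse 6, WT Tg-SwDI mouse 4, 5 or 6, or any of the KO Non-Tg mice, and the adjusted p reached 0.157 for Mki67 and 0.0706 for Cdk1. The share of all tested genes called with these mice left out is not given, so the lower counts are not read as particular to these genes.

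Within KO mice, Tg-SwDI against Non-Tg, Cdk1 rose 3.47-fold (log2 1.79, SE 0.40, edgeR adjusted p = 0.00187) and Mcm3 1.93-fold (log2 0.95, SE 0.13, adjusted p = 6.06e-06). Top2a rose 2.18-fold (log2 1.12, SE 0.39, adjusted p = 0.0463), Ccna2 1.47-fold (log2 0.56, SE 0.18, adjusted p = 0.0310) and Mcm2 1.20-fold (log2 0.26, SE 0.09, adjusted p = 0.0463). Mki67, at 0.31 (SE 0.16, adjusted p = 0.185), and Mcm5, at 0.29 (SE 0.12, adjusted p = 0.0860), did not pass, nor did Mcm4, Mcm6 and Mcm7. That made 5 of 10 genes that were higher (4 of 9 without Cdk1), against 12.5% of all tested genes. For 2 of the 10, Cdk1 and Mcm3, every Tg-SwDI mouse lay above every Non-Tg mouse, which held for 8.46% of all tested genes. For Cdk1 this is tied to the filter on low counts, which it passed through its Tg-SwDI levels. Here 5 Tg-SwDI mice and 0 Non-Tg mice exceeded the filter's threshold. Without Cdk1 the count was 1 of 9, Mcm3. The WT and KO comparisons share no mice, but both rest on the 1 spread fitted over all 20.

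The calls of Cdk1 and Mcm3 in KO mice held in each of the 28 and 29 alternative settings that gave them a value, the replicate block counted apart, with adjusted p at most 0.0199 and 0.000198. Those of Top2a, Ccna2 and Mcm2 held in fewer, 13, 19 and 7 of 29. The count fell to 2 of 10 without KO Non-Tg mouse 1, 2 or 7 or KO Tg-SwDI mouse 3, and to 3 of 10 without KO Non-Tg mouse 4 or 8, KO Tg-SwDI mouse 1 or 8, WT Non-Tg mouse 6 or WT Tg-SwDI mouse 5 or 6. It did not stay at 5 of 10 for all other left-out mice. Over the 20 such fits Ccna2 passed 14 times, Top2a 6, Mcm2 5 and Mcm5 1. With the choroid plexus level as a covariate 2 of 10 genes passed. For the covariate and the left-out mice the share of all tested genes called is not given, so these lower counts are not read as particular to these genes. Choroid plexus markers themselves moved with this comparison, 8 of 10 called higher against 12.5% of all tested genes. Their sums were 67.8 to 357 CPM in KO Non-Tg and 135 to 3966 CPM in KO Tg-SwDI mice. Their part in the 3 calls lost with the covariate was not tested further.

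**Figure D3:**
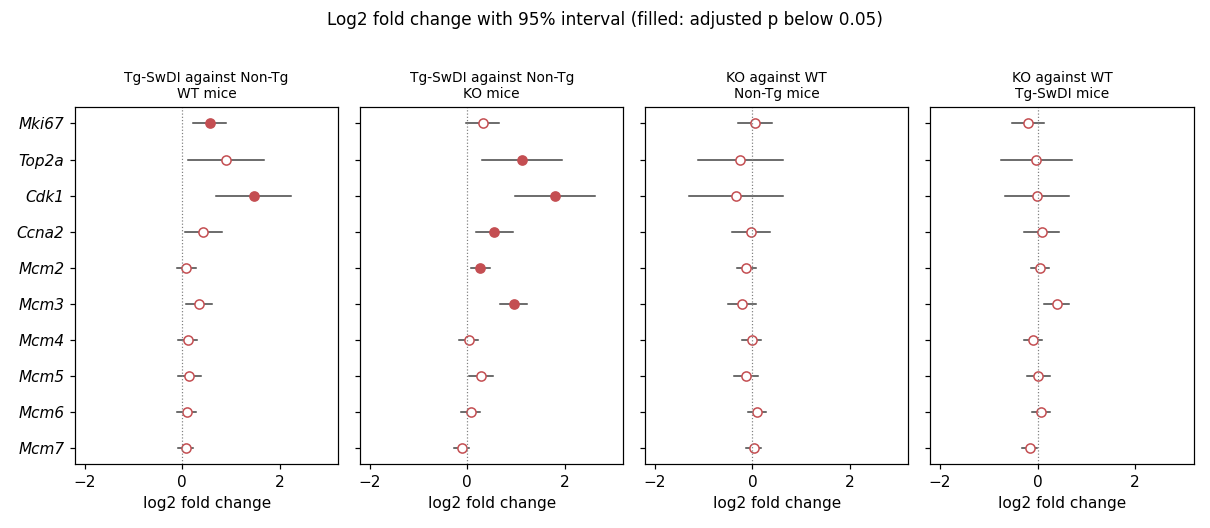
Log2 fold change (points) with 95% interval (lines) of each gene in 4 comparisons between groups; filled points passed the test. The division genes and Mcm3 lie right of 0 in both Tg-SwDI against Non-Tg panels, and no gene is filled in the KO against WT panels.

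The loss of miR-34a changed none of these genes beyond the threshold. In Tg-SwDI mice, KO against WT, 0 of 10 genes passed edgeR's quasi-likelihood test, and 0 passed DESeq2 or edgeR's exactTest, where 1.99% of all tested genes passed the first. At an unadjusted p below 0.05 there were 2 of 10, against 18.9% of all genes. They were Mcm3, with a log2 difference of 0.39 (SE 0.13, adjusted p = 0.0991), and Mcm7, with -0.16 (SE 0.07, adjusted p = 0.227). Mcm7 was the 1 gene of the 10 whose KO mice all lay below the WT mice, which held for 1.11% of all tested genes. The division genes were at log2 differences of -0.20 for Mki67, -0.02 for Top2a, -0.02 for Cdk1 and 0.09 for Ccna2. Their 95% intervals were wide for Top2a (-0.76 to 0.71) and Cdk1 (-0.67 to 0.64) and narrower for Mki67 (-0.53 to 0.13) and Ccna2 (-0.27 to 0.45), and the upper bound of each lay below that gene's log2 fold change for the transgene over both genotypes.

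In Non-Tg mice, KO against WT, 0 of 10 genes passed in edgeR's quasi-likelihood test, DESeq2 and the exactTest, and 0 of 10 had an unadjusted p below 0.05. Over all tested genes 0% passed and 8.08% had an unadjusted p below 0.05. The log2 differences ran from -0.34 for Cdk1 (SE 0.47) to 0.09 for Mcm6 (SE 0.09). This comparison and the previous one share no mice, while each shares groups with the transgene comparisons above.

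The interaction asks whether the transgene's difference depended on miR-34a. In edgeR's quasi-likelihood test and in DESeq2 0 of 10 genes passed, against 0.608% of all tested genes in the former, and 1 of 10, Mcm3, had an unadjusted p below 0.05, against 17.5%. Its interaction term was 0.61 on the log2 scale (SE 0.19, unadjusted p = 0.00320, adjusted p = 0.108). For Cdk1 the term was 0.33 (95% interval -0.83 to 1.49) and for Mki67 -0.25 (-0.72 to 0.22). That Mki67 passed in WT mice alone and Top2a, Ccna2, Mcm2 and Mcm3 in KO mice alone does not show a difference between the genotypes.

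Other genes of the same machinery were read from lists, and the log2 fold changes that follow are those of Tg-SwDI against Non-Tg over both genotypes. Among 21 of 26 mitosis genes that were tested, 4 were called higher and none lower, against 11.3% of all tested genes called higher, with a median of 0.25. They were Birc5 (survivin, of the chromosomal passenger complex; 0.87, SE 0.20, edgeR adjusted p = 0.00288), Cenpf (0.60), Prc1 (0.34), which bundles the midzone microtubules, and Nuf2 (0.26), of the kinetochore. Birc5, like Cdk1, entered the test through the Tg-SwDI mice, of which 4 WT and 4 KO exceeded the filter's threshold against 1 WT and 0 KO Non-Tg mice, and its adjusted p with no filter was 0.00749. Without Birc5 the called genes of this list were Cenpf, Prc1 and Nuf2. The mitosis genes Aurkb, Bub1, Ccnb1, Ndc80 and Cdc25c failed the filter on low counts. Without it, Ccnb1 (cyclin B1, the partner of Cdk1; 1.39, SE 0.34, adjusted p = 0.00355) and Bub1 (1.39, SE 0.44, adjusted p = 0.0360) passed, with at most 12 reads in any mouse. The share of all genes called in that fit is not given here. With each of the 20 mice left out in turn Cenpf passed 11 times (adjusted p up to 0.0674, without WT Non-Tg mouse 6), Prc1 9 times (up to 0.0776, without WT Tg-SwDI mouse 4) and Nuf2 7 times (up to 0.0997, without KO Tg-SwDI mouse 3).

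Of 22 tested genes of origin licensing and firing, 1 was called, where 11.3% of all tested genes were called higher. It was Orc1 (largest subunit of the origin recognition complex; 0.43, SE 0.15, edgeR adjusted p = 0.0484), and the median was 0.0065. Of 27 replication fork genes, 1 was called, Pold4, the smallest subunit of DNA polymerase delta (0.44, SE 0.06, adjusted p = 4.53e-06), with a median of 0.03. Pold4 had means of 8.25 (WT) and 8.97 CPM (KO) without the transgene and of 10.5 (WT) and 12.9 CPM (KO) with it, and it was called in both genotypes. In nucleotide supply, 1 of 6 genes was called, Tk1 (thymidine kinase; 0.49, SE 0.17, adjusted p = 0.0495), and in KO mice alone Rrm2, a ribonucleotide reductase subunit, passed as well (0.59, SE 0.20, adjusted p = 0.0373). Summed levels of the fork list were 344, 341, 349 and 350 CPM in the same order. Of these calls that of Pold4 held with each of the 20 mice left out in turn, that of Orc1 with 5 of 20 (adjusted p up to 0.111, without WT Tg-SwDI mouse 6) and that of Tk1 with 6 of 20 (up to 0.115, without WT Tg-SwDI mouse 4). The call of Rrm2 in KO mice held with 12 of 20 (up to 0.0845, without KO Tg-SwDI mouse 8).

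Among 22 tested cyclins, kinases and E2F factors, 3 were called higher and none lower, a share close to the 11.3% of all tested genes, with a median of 0.10. They were Rbl1 (the pocket protein p107, an E2F target; 0.58, SE 0.11, edgeR adjusted p = 0.000392), Cdk2 (0.43, SE 0.11, adjusted p = 0.00643), which acts in S phase, and Cdk6 (0.38, SE 0.10, adjusted p = 0.00972), which acts in G1. In KO mice, Cdk4 (0.21) and Ccnd3 (0.43), the G1 kinase and a cyclin D that binds it, passed besides Rbl1 and Cdk2. That made 4 of 22 called higher there, against 12.5% of all tested genes. Cdk4 was called in 27 of 29 alternative settings (log2 0.057 to 0.243) and Ccnd3 in 28 of 29 (0.161 to 0.504). Both calls held with each of the 20 mice left out in turn. None of 6 tested CDK inhibitors passed by edgeR's quasi-likelihood test, where 2 had an unadjusted p below 0.05, as did 4851 of all 16107 genes tested. Without the filter Cdkn2a, which encodes p16 and ARF, passed at 1.17 (SE 0.35, adjusted p = 0.0217) with at most 16 reads in a mouse. Only 2 mice, both KO Tg-SwDI, exceeded the filter's threshold for Cdkn2a, and the share of all genes called without the filter is not given. In KO against WT Tg-SwDI mice no gene of these 6 lists passed, where 1.99% of all tested genes did. The gene nearest to the threshold was Pold4 (0.30, SE 0.08, edgeR adjusted p = 0.0592).

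**Figure D4:**
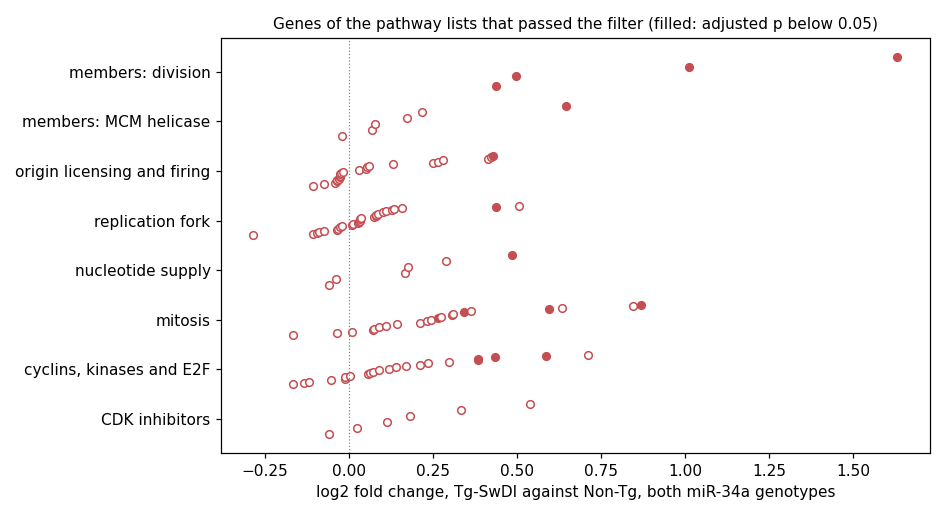
Log2 fold change (horizontal axis) of Tg-SwDI against Non-Tg mice over both genotypes for the 10 genes and for each tested gene of 6 related lists, 1 row a list and 1 point a gene; filled points passed the test. The division genes reach from 0.44 to 1.63, while the replication fork list centres at 0.03.

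Levels of cell type markers were set beside these genes, since in bulk tissue more cells of a type and more RNA per cell cannot be told apart, and the cells that held the transcripts were not identified. Of 12 microglia markers, 12 were called higher in Tg-SwDI mice in each genotype, with a median log2 fold change of 0.91 in WT and 1.37 in KO mice. Over all tested genes, 3.94% in WT and 12.5% in KO mice were called higher. Their summed level without the transgene was 382 ± 33 CPM in WT and 356 ± 9.6 CPM in KO mice, and with it 799 ± 49.6 CPM in WT and 978 ± 121 CPM in KO mice (SD, n = 5 each). Csf1r, the receptor that drives microglial proliferation, rose by a log2 of 0.84 in WT and 1.39 in KO mice, and Csf1 rose by 0.81 and 1.27. Il34, the other ligand, did not pass in either genotype (-0.15 and -0.0033).

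Sums over the lists were set side by side. The summed CPM of the 4 division genes was 4.54 ± 0.70, 4.38 ± 0.49, 7.31 ± 1.38 and 6.99 ± 0.97 in the 4 groups, a ratio of Tg-SwDI to Non-Tg of 1.61 in WT and 1.60 in KO mice. For the microglia markers the ratios were 2.09 and 2.74. Between KO and WT Tg-SwDI mice the division sum had a ratio of 0.957 and the microglia sum 1.22, and there 4 of 12 microglia markers (Itgam, Siglech, Sall1 and Laptm5), Csf1r (0.56, edgeR adjusted p = 0.000673) and Csf1 (0.41, adjusted p = 0.0166) were called higher. Over all genes tested, 239 of 16107 were called higher in that comparison. The call of Csf1 was lost without WT Tg-SwDI mouse 7 (adjusted p = 0.0608) and with the compared groups alone (0.0719). No test was made of the difference between these ratios. The MCM sum was 49.9 ± 1.1, 49.5 ± 2.6, 53.9 ± 2.8 and 54.0 ± 4.8 CPM, with ratios of 1.08 and 1.09.

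**Figure D5:**
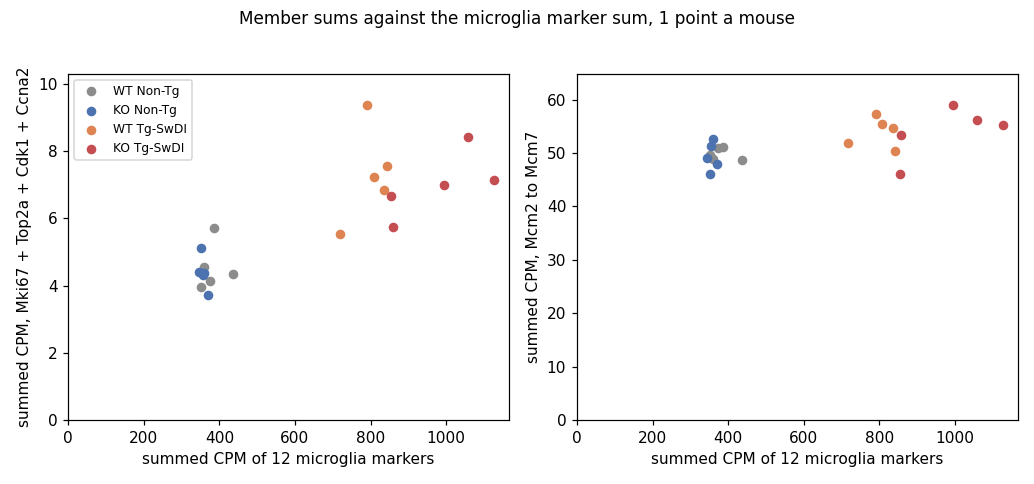
Summed CPM of the 4 division genes (left) and of Mcm2 to Mcm7 (right) against the summed CPM of 12 microglia markers, 1 point a mouse, colours for the 4 groups, all axes from 0. On the left the Tg-SwDI mice (division sum 5.54 to 9.37) lie right of and mostly above the Non-Tg mice (3.73 to 5.72), while KO and WT Tg-SwDI mice differ along the microglia axis.

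Markers of other cells that can divide were read as well. Over both genotypes, 1 of 8 markers of neural progenitors and new neurons was called (Sox11, 0.24), 1 of 6 oligodendrocyte precursor markers (Cspg4, 0.18) and 1 of 6 endothelial markers (Flt1, 0.15), all higher, where 11.3% of all tested genes were. Summed progenitor levels without the transgene ran from 80.6 to 97.9 CPM in WT and 85.8 to 92.0 CPM in KO mice, and with it from 81.8 to 90.3 CPM in WT and 81.4 to 109 CPM in KO mice. Summed precursor levels without it ran from 136.1 to 149 CPM in WT and 136.3 to 159 CPM in KO mice, and with it from 139 to 169 CPM in WT and 137 to 165 CPM in KO mice, so the ranges of both lists overlapped. Of 6 T cell markers, Trbc2 and Lck were tested, with at most 39 reads in a mouse, and neither passed in Tg-SwDI against Non-Tg KO mice (0.05, adjusted p = 0.938, and -0.09, adjusted p = 0.777, by edgeR). Cd3e, Cd3d, Cd3g and Cd8a had at most 11 reads in any mouse and failed the filter. Without it Cd8a (2.24, SE 0.63, edgeR adjusted p = 0.0137) and Cd3g (2.55, SE 0.73, adjusted p = 0.0158) passed in Tg-SwDI against Non-Tg KO mice. These 2 calls rest on at most 8 reads (Cd8a) and 11 reads (Cd3g) in a mouse, and the share of all genes called without the filter is not given. No blood marker passed in any comparison by edgeR, and 0 of 4 tested had an unadjusted p below 0.05 over both genotypes, against 4851 of all 16107 genes tested.

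Across the 20 mice, the genes whose log2 CPM was most like the logarithm of the division sum were Tlr13 (Pearson r = 0.903), Lpar6 (0.901), Kcnj2 (0.901), then Gcnt1 and Cd53 (0.895). For the MCM sum they were Serinc3 (0.871), Cndp2 (0.869), Oplah (0.863), Ctso (0.853) and Galnt1 (0.852). These values describe 20 mice in 4 groups that share the transgene difference, and no p is attached. With group means subtracted the nearest genes were others, Afg3l1 (0.790), Sdhaf4, 1600014C10Rik, Ndnf and Gad2 for the division sum, and St3gal4 (0.855), Zfp24, Paqr8, Selenoh and Xpnpep2 for the MCM sum. Between the members, Top2a and Cdk1 had r = 0.764 over the mice and 0.556 with group means subtracted, whereas Mki67 and Ccna2 had 0.316 and -0.303.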

How the data were processed

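RNA of 20 mice was sequenced by the authors as stranded mRNA libraries on the DNBSEQ platform, aligned to mm10 with STAR and counted on ENSEMBL genes with FeatureCounts. The authors deposited raw read counts per gene, without normalization. Tool versions, the strand setting and how multi-mapping reads were counted are not given in the sources used here. Symbols came from GENCODE M21, which matched 38872 of 39056 identifiers (99.53%).

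Groups were taken from the labels. The 10 genes, the gene lists and the tests were chosen with earlier results of these data known. Genes of the table were filtered with filterByExpr (minimum count 10, minimum total 15), scaled by TMM and fitted with edgeR 4.0.16 in R 4.3.3 (quasi-likelihood, robust) to 4 group means with 16 residual degrees of freedom, and p-values were adjusted over 16107 genes at an FDR of 0.05. Named genes were the 10 genes in every comparison, from each list the called genes (at most 6 by smallest p) or up to 2 not called, and the 5 most alike genes by Pearson r of log2 CPM (prior count 2). Genes outside this rule were Gm45240, Exosc9, Ap4m1, Cops6 and the microRNA genes of Mcm7, which overlap a named gene. Genes that failed the filter were taken from an unfiltered fit.

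Alternatives were DESeq2 1.42.0, exactTest, RLE factors, library size alone, no filter, a filter at a mean of 1 CPM (stricter), the compared groups alone, the replicate number as a block, a choroid plexus covariate and each mouse left out. A correction that takes out the trend of a library's counts with GC content and gene length was added after seeing the data. On data simulated from these counts for Tg-SwDI against Non-Tg KO mice, over 16107 genes, 93% of 100 genes with a true log2 change of 1 and 63% of 100 with 0.5 were called, along with 9 unchanged genes. The changed genes were drawn at random from all tested genes. These shares therefore need not hold for genes with as few reads as Cdk1 or Top2a. Far fewer genes were changed in the simulation than were called in the data (2013 higher and 1338 lower). The adjustment over all genes depends on that number, so the shares need not match those of the real test. The authors describe the KO and WT Tg-SwDI mice as littermates. The labels do not give the litter of a mouse and the fit did not include it. The p-values therefore treat the mice as independent, which littermates may not be, and the effect of this was not tested.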

Additional observations from a re-analysis of the deposited data

Results flagged for a closer look

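Cdk1 in WT Non-Tg mouse 7, at 0.763 CPM (16 reads), stood far from the other 4 mice of its group, which lay between 0.0999 and 0.284 CPM. Its gap to the nearest of them was 0.723 of the group's range, against a critical value of 0.71. It was the 1 sample that stood apart among the 40 sets of 5 mice that were examined, and chance alone flags about 1 in 20. Without this mouse Cdk1 rose by a log2 of 2.08 in Tg-SwDI against Non-Tg WT mice.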

How the results depend on the processing

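The counts of 0 of 10 genes called in both KO against WT comparisons and in the interaction stayed at 0 in every alternative run, and the 5 of 10 over both genotypes lay between 4 and 6. For Tg-SwDI against Non-Tg in WT mice the 2 called genes became 1 with library size alone, no filter, the stricter filter (which leaves Cdk1 untested), the compared groups alone, and the GC and length trend removed, and 0 to 2 with 1 mouse left out. In KO mice the 5 called genes became 2 with no filter, 3 with the compared groups alone, 2 with the choroid plexus covariate and 2 to 5 with 1 mouse left out. Beyond the untested Cdk1, the cause was not tested. These counts, and those of the replicate block and of left-out mice, stand without the share of all tested genes called in the same setting. Whether calls fell over all genes as well is therefore not shown. Depth limits Cdk1 most, which had 2 to 26 reads a mouse.

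Equal label numbers did not pair the mice: the median correlation of 16 pairs with the same number was -0.039 (-0.404 to 0.154), and 2 of 16 exceeded 0.1. With the number as a replicate block 1 of 10 genes was called in WT and 3 of 10 in KO mice for the transgene. Under the block the sign turned for KO against WT in Tg-SwDI mice for Top2a (0.10), Cdk1 (0.23), Mcm2 (-0.035) and Mcm5 (-0.022), in Non-Tg mice for Mcm4 (0.038) and Mcm7 (-0.0044), and for the interaction of Mcm6 (0.0030).

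Other signs turned as well, all of differences that had not passed. With the GC and length trend removed, KO against WT in Tg-SwDI mice gave 0.025 for Top2a and -0.024 for Mcm5, and in Non-Tg mice 0.0034 for Mcm4, while the transgene gave -0.060 for Mcm4 and -0.011 for Mcm6 in KO mice and -0.014 for Mcm4 over both genotypes. With library size alone Mcm5 was -0.030 for KO against WT in Tg-SwDI mice and Mcm4 -0.0044 for the transgene in KO mice. With the choroid plexus covariate KO against WT in Non-Tg mice gave -0.078 for Mki67 and 0.0050 for Mcm4, and the interaction of Mcm6 was 0.0026. With 1 mouse left out, KO against WT in Tg-SwDI mice ranged from -0.31 to 0.27 for Top2a, -0.15 to 0.14 for Cdk1 and -0.045 to 0.069 for Mcm5. In Non-Tg mice it ranged from -0.063 to 0.14 for Mki67, -0.43 to 0.082 for Top2a, -0.71 to 0.27 for Cdk1, -0.17 to 0.078 for Ccna2, -0.086 to 0.028 for Mcm4 and -0.031 to 0.060 for Mcm7. The transgene ranged from -0.033 to 0.10 for Mcm4 in KO mice and -0.040 to 0.0068 for Mcm7 over both genotypes, and the interaction from -0.11 to 0.52 for Top2a, -0.29 to 0.70 for Cdk1 and -0.078 to 0.047 for Mcm6. Of the other values of the 10 genes, 512 settings gave the same direction and call, 21 lost a call and 2 gained one, with left-out mice counted apart.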
